A study of Populus tremula x Populus alba with 6 samples.

Results

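Far upstream promoter peaks are the binding regions of the poplar transcription factor PtrbHLH011 that lie well ahead of a gene's start but still count as promoter. They were chosen by position alone, from the authors' 2 peak tables, one for each parental chromosome set (subgenome) of the hybrid. A peak was taken when its deposited annotation was a promoter class and its summit, the base of highest read coverage, lay more than 1000 bp upstream of the start of the gene assigned to it. This gave 2243 of 18975 peaks on P. alba and 2053 of 17040 on P. tremula, 4296 of 36015 in all. Height, enrichment and the other subgenome played no part in the choice.

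The cells were mesophyll protoplasts, leaf cells freed of their walls, from the hybrid Populus tremula x Populus alba, and they transiently expressed PtrbHLH011 fused to 10 copies of the Myc epitope. Of the 6 libraries, 3 were ChIP libraries made with an anti-Myc antibody and 3 were input libraries made with no antibody, each group numbered as biological replicates. All 6 came from cells that expressed the fusion and were fixed with 1% formaldehyde for 8 min. The promoter that drove the fusion is not given in the sources used here. The peak names carry a tag that matches no library label, so the library or pool behind the peaks is unknown. No values per library are given, so no spread between replicates could be computed. No expression was measured against which the labelled cell type could be checked.

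As background, basic helix-loop-helix (bHLH) factors bind DNA as dimers, mostly at short palindromes called E-boxes, and in Arabidopsis several of them form the network that switches iron uptake genes on or off. Arabidopsis bHLH11 is known there as a repressor of iron uptake genes. Regulatory sites of plant genes are often concentrated close to the start, and sites farther out can belong to the same promoter, to an enhancer or to a neighbouring gene. Gene identifiers come without names in the tables, so genes are given below by identifier or position, and no sequence is shown.

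Far upstream peaks made up 11.8% of all P. alba peaks (exact 95% interval 11.4 to 12.3%) and 12.05% of all P. tremula peaks (11.6 to 12.5%). Within the promoter class, which reaches to both sides of a start, their shares were 19.5% and 19.8%. They were assigned to 2093 genes on P. alba and 1926 on P. tremula. The genes stood on the plus strand for 50.5% and 50.6% of the peaks, so neither strand prevailed. On the 19 chromosomes the peaks formed between 9.44% (chromosome 19) and 13.7% (chromosome 7) of a chromosome's P. alba peaks. On P. tremula the range ran from 9.61% (chromosome 19) to 14.5% (chromosome 13). Unplaced scaffolds held 66 and 65 of them (2.94% and 3.17%), where they held 4.70% and 4.82% of all peaks. Of promoter-class peaks with summits up to 1000 bp upstream, 2.65% and 2.43% lay on scaffolds.

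Summits were spread over the whole interval and thinned out with distance. The median summit lay 1863 bp upstream on P. alba and 1886 bp on P. tremula. Between 1 and 2 kb lay 1259 P. alba summits, against 933 between 2 and 3 kb, a ratio of 1.35 (95% interval 1.24 to 1.47, exact binomial p = 3.55e-12). On P. tremula the counts were 1136 and 855, a ratio of 1.33 (1.21 to 1.45, exact binomial p = 3.27e-10). Each peak is assigned to 1 gene in the tables, so a summit nearer to another gene's start is missing from these windows, and the part of this in the decline was not tested. The fullest bins of 100 bp in the far upstream interval were those next to its inner limit, with 155 P. alba summits between 1000 and 1100 bp. That is level with the 163 in the bin just inside the limit and far below the 476 in the last 100 bp before the start.

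**Figure D1:**
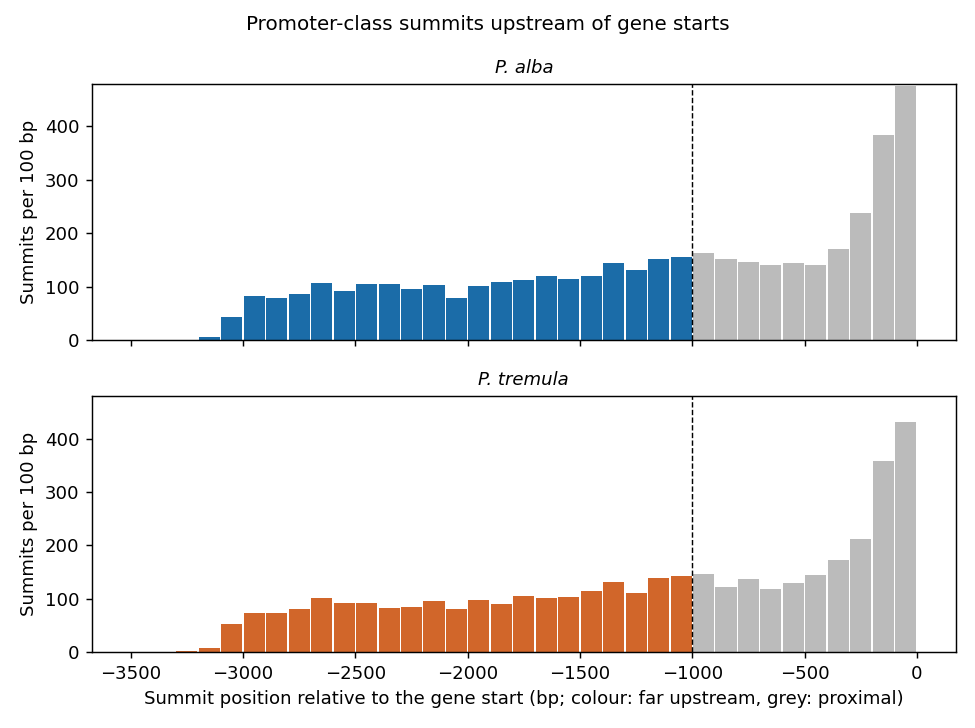
Number of promoter-class summits in bins of 100 bp, plotted by position upstream of the assigned gene's start (bp), for P. alba (top) and P. tremula (bottom). Coloured bars are far upstream peaks and grey bars proximal upstream peaks, and the dashed line is the limit of 1000 bp. No step is seen at the limit, with 163 P. alba summits in the bin before it and 155 in the bin after it.

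The inner limit cuts through a continuous run of peaks. The 2 P. alba members closest to it, both with summits 1 bp past the limit, had 29 and 6 reads at the summit and folds of 6.72 and 3.52 over the peak caller's local background. The 2 P. alba peaks just short of it, at 1000 bp, had 5 and 7 reads and folds of 3.02 and 4.02. On P. tremula the nearest members had 8 and 7 reads (folds 4.53 and 3.36) and the nearest peaks left out 9 and 8 reads (folds 4.202 and 4.53).

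The deposited class names placed most members in the same distance range. The 1 to 2 kb class held 1203 P. alba and 1090 P. tremula members, and the 2 to 3 kb class 923 and 855. The other 117 and 108 carried the label for peaks within 1 kb. The deposited distance is measured from the edge of a peak closest to the start, and summits lay a median 63 and 64 bp farther out. For the same reason 51 and 62 members had summits more than 3000 bp upstream, up to 3476 bp on P. alba and 3390 bp on P. tremula. The widest disagreement, picked out after its values were seen, was a P. tremula peak 4258 bp long on chromosome 2 (18347715 to 18351972). It reached over the gene's start, so its deposited distance was 0, while its summit of 80 reads lay 1836 bp upstream. Its P. alba partner (18349804 to 18352032) also had 80 reads, 1838 bp upstream.

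Most far upstream peaks were short and shallow, as in the lists as a whole. Their median length was 126 bp on P. alba and 129 bp on P. tremula. The median summit held 7 reads in both lists (25th to 75th percentile 6 to 9). Summits of 6 reads were the most frequent among the shallow depths, at 29.9% and 30.8% of members. The caller's q value was at or under 0.05 for 1685 P. alba members (75.1%, where 72.6% of all P. alba peaks passed). On P. tremula 1566 members passed (76.3%, against 72.9% of all peaks). The other members of the class did not meet that level.

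The background under a peak was recovered from its fold and its pileup. For 60.3% of P. alba members and 58.6% of P. tremula members it was at its lowest value, called the floor here, which was 0.989 and 0.985 reads (58.9% and 56.7% of all peaks). At the floor the fold follows from the read count alone. On P. alba a summit of 6 reads there had a fold of 3.52, one of 7 reads 4.02, one of 8 reads 4.52 and one of 9 reads 5.03. The 525 P. alba members with 6 reads at the floor thus share a single fold, and the 495 on P. tremula lay between 3.51 and 3.53, so ranks among such peaks carry no information. Proximal peaks stood at the floor more often, at 70.0% and 66.9% (odds ratios of far to proximal 0.649, 0.573 to 0.736, and 0.699, 0.615 to 0.795, Fisher's exact p adjusted over 6 added tests 7.28e-11 and 7.65e-08).

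Depth was compared with that of the proximal upstream peaks, the 2153 P. alba and 1972 P. tremula promoter-class peaks with summits up to 1000 bp ahead of a start. Summits of 10 or more reads were found in 21.5% of far upstream P. alba peaks (482, interval 19.8 to 23.2%), where 21.5% of all P. alba peaks reached that depth. The proximal share was 14.5% (13.1 to 16.1%). The odds ratio of far to proximal was 1.61 (1.38 to 1.88, Fisher's exact p adjusted over 8 tests 9.36e-09). On P. tremula 22.3% of far upstream peaks (458) reached 10 reads, against 22.3% of all peaks and 14.4% of proximal ones (odds ratio 1.71, 1.45 to 2.01, Fisher's exact adjusted p = 7.26e-10). The far upstream shares were thus equal to those of the whole lists, and the proximal shares were lower. The whole lists are a mixed reference, since they include distal intergenic peaks, of which 40.1% and 42.0% reached 10 reads. Shares of the lists without distal peaks were not computed, so the equality does not make far upstream peaks typical of the remaining classes. These tests count peaks, which are not biological replicates, and measure counting error within a list.

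Among the depths compared, the odds ratios were farthest from 1 at intermediate depth, a range added to the planned tests. Summits of 20 to 49 reads made up 8.11% of far upstream peaks on P. alba (182, with 6.81% among all peaks) against 3.90% of proximal ones (odds ratio 2.18, 1.67 to 2.84, Fisher's exact p adjusted over 6 added tests 8.43e-09). On P. tremula the shares were 8.57% (176, with 7.21% among all peaks) and 4.01% (odds ratio 2.25, 1.71 to 2.95, Fisher's exact adjusted p = 5.76e-09). Among distal intergenic peaks, 14.2% and 14.5% had summits of this depth. At the deep end the order was the other way round, though not against the outer proximal peaks described next. Summits of 500 reads or more were 0.758% of far upstream P. alba peaks (17, with 1.12% among all peaks) and 1.53% of proximal ones (odds ratio 0.491, 0.272 to 0.883, Fisher's exact adjusted p = 0.0190). On P. tremula they were 0.974% (20, with 1.21% among all peaks) and 1.83% (odds ratio 0.529, 0.305 to 0.917, Fisher's exact adjusted p = 0.0223). Of these deep members, 11 on P. alba and 12 on P. tremula lay close together on chromosome 13, as described below. The test treats such neighbours as independent peaks, so its p values do not measure counting error well here.

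The contrast in depth with proximal peaks was mostly one with the 500 bp next to the start. In bins of 500 bp, the share of P. alba summits with 10 or more reads was 22.0% at 2500 to 3000 bp, 24.0% at 2000 to 2500 bp, 19.96% at 1500 to 2000 bp and 19.6% at 1000 to 1500 bp. It was still 19.97% at 500 to 1000 bp and only then fell, to 11.7% in the last 500 bp. The P. tremula series from the farthest bin inward was 22.9%, 24.4%, 21.5%, 20.5%, 19.1% and 12.1%. Set against proximal peaks more than 500 bp out, a reference chosen once the bins had been seen, the far upstream odds ratio for 10 or more reads was 1.10 on P. alba and 1.22 on P. tremula (Fisher's exact adjusted p = 0.462 and 0.162). For 20 to 49 reads it was 1.09 (0.797 to 1.49) and 1.13 (0.818 to 1.57), each with a Fisher's exact adjusted p of 0.788. These intervals still allow ratios on both sides of 1. For 500 reads or more the odds ratios against this reference were 0.942 and 0.796 (Fisher's exact adjusted p = 0.814 and 0.788). The lower share at the floor kept its call, with an odds ratio of 0.797 in both lists (Fisher's exact adjusted p = 0.0457 for each).

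**Figure D2:**
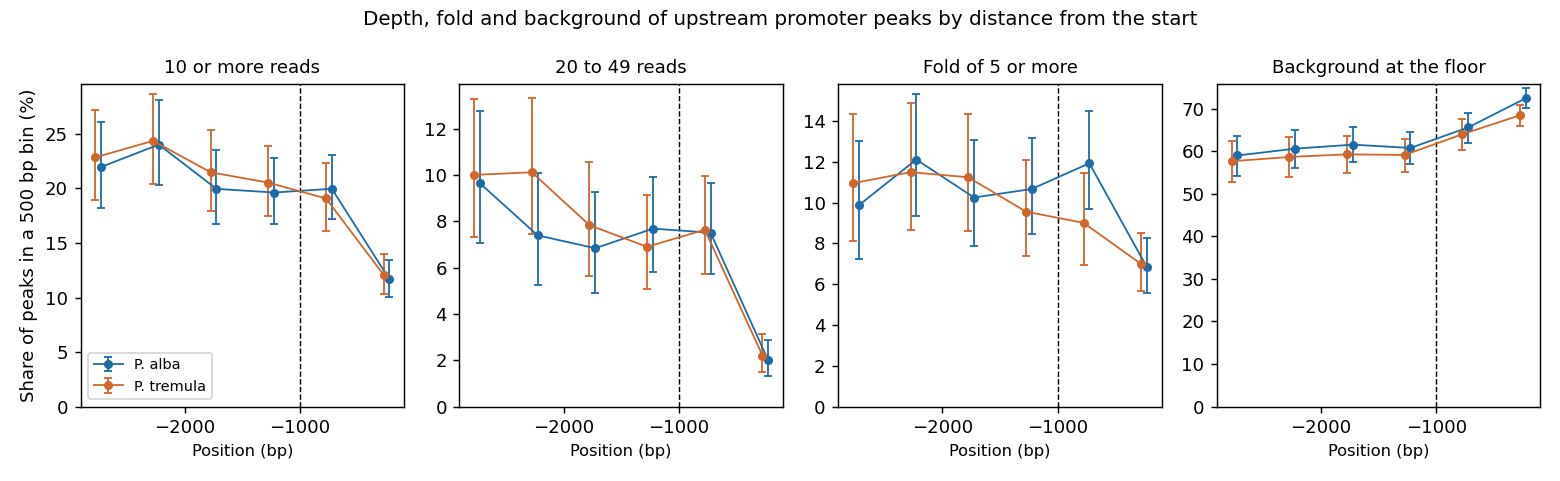
Share (%) of upstream promoter-class peaks in bins of 500 bp that had 10 or more reads at the summit, 20 to 49 reads, a fold of 5 or more, or a background at the floor, by position ahead of the start (bp). Points are shares, bars exact 95% binomial intervals, and the dashed line is the limit of far upstream peaks. The share with 10 or more P. alba reads stays between 19.6% and 24.0% from 3000 to 500 bp upstream and is 11.7% in the last bin.

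Folds of 5 or more were more frequent far upstream than in the lists as a whole. They were not more frequent than in distal intergenic peaks, where 11.97% and 11.4% had them. A fold of 5 or more was reached by 246 P. alba members (10.97%, 9.70 to 12.3%), where 8.21% of all P. alba peaks reached it, and by 8.59% of proximal peaks (odds ratio 1.31, 1.07 to 1.60, Fisher's exact adjusted p = 0.00833). On P. tremula 223 members did (10.9%, 9.55 to 12.3%), where 8.08% of all peaks did, and 7.66% of proximal peaks (odds ratio 1.47, 1.183 to 1.82, Fisher's exact adjusted p = 0.000570). Against all other peaks of the same list the odds ratios were 1.45 and 1.46 (Fisher's exact adjusted p = 7.80e-06 for each). A fold of at least 10 was seen for 32 members on P. alba and 23 on P. tremula, or 1.43% and 1.12%, where 0.78% and 0.628% of all peaks had them. Of distal intergenic peaks, 0.957% and 0.697% had a fold of at least 10, a difference that was not tested.

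The excess of high folds over proximal peaks lay in peaks whose background was above the floor. There, 19.1% of 891 P. alba members had a fold of 5 or more, against 14.1% of 645 proximal peaks and 13.7% of all P. alba peaks above the floor. On P. tremula 18.9% of 850 members did, against 11.8% of 652 proximal peaks and 12.8% of all. At the floor the shares were 5.62% of members and 6.23% of proximal peaks on P. alba, and 5.15% and 5.61% on P. tremula, with 4.38% and 4.47% among all peaks at the floor. With peaks at the floor alone, an added comparison, the odds ratio for a fold of 5 or more turned to 0.896 and 0.915 (Fisher's exact adjusted p = 0.753 for each). It was also below 1 on P. alba, at 0.909, when the reference was the proximal peaks more than 500 bp upstream, and 1.23 on P. tremula (Fisher's exact adjusted p = 0.462 and 0.298). Members with a fold of 5 or more had a median of 25 reads (P. alba) and 26 reads (P. tremula), over a median background of 2.15 and 2.30 reads.

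Members of intermediate depth lay on both sides of a fold of 5. Of the far upstream peaks with 20 to 49 reads, 63.2% on P. alba (115 of 182) and 60.8% on P. tremula (107 of 176) had a fold of 5 or more. In the whole lists 44.6% and 43.9% of peaks of this depth did. Distal intergenic peaks of the same depth reached it in 34.9% (254 of 728) and 31.98% (213 of 666). The odds ratios of far upstream to distal were 3.20 (2.29 to 4.49) and 3.30 (2.34 to 4.65), each with a Fisher's exact p adjusted over 4 added tests of 1.45e-11. Proximal peaks of this depth stood at 63.1% and 63.3%, with odds ratios of 1.00 (0.587 to 1.72) and 0.899 (0.520 to 1.56) and Fisher's exact adjusted p = 1 for both.

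**Figure D3:**
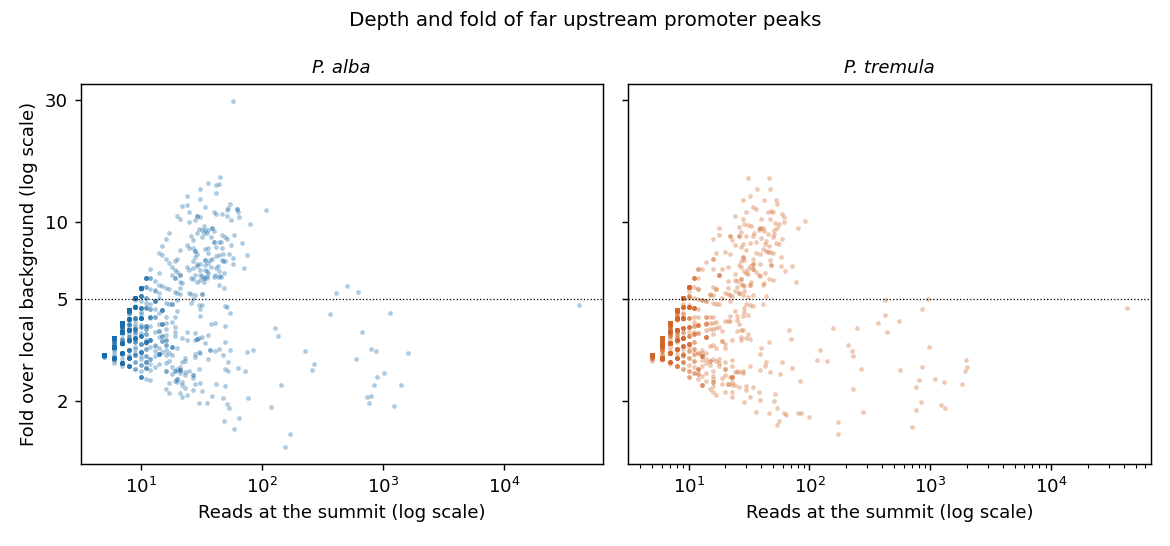
Reads at the summit (log scale) against fold over the local background (log scale) for each far upstream peak of P. alba (left, 2243 peaks) and P. tremula (right, 2053). The dotted line marks a fold of 5. Peaks of 20 to 49 reads lie above it in 63.2% and 60.8% of cases, and of the peaks with 500 reads or more only 2 and 1 do.

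The highest fold of the class was seen on 1 subgenome. Ahead of Potri.001G115200 on chromosome 1, the P. alba peak (9188686 to 9188780) had 58 reads and a fold of 29.7 at 1413 bp upstream. Its P. tremula partner (9189796 to 9189887), at 1408 bp, had 9 reads and a fold of 5.04. Both stood on a floor background, so the difference is one of summit reads. A partner here is a peak of the other list at the same gene whose summit lies within 100 bp of the same distance from the start.

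The other leading peaks were more alike in the 2 lists. The highest P. tremula fold was at Potri.012G139400 on chromosome 12 (15355371 to 15355555), with 31 reads and a fold of 14.9 at 1339 bp upstream. Its P. alba partner (15358004 to 15358188) also had 31 reads, with a fold of 13.4 at 1336 bp. Ahead of a gene on chromosome 13, peaks 1797 and 1767 bp upstream (9572542 to 9572815 on P. alba, 9570612 to 9570885 on P. tremula) had 44 and 46 reads and folds of 14.0 and 14.8. That gene had 7 peaks in all on P. alba and 6 on P. tremula.

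Several leading peaks had equal or near-equal reads but unequal folds, because their backgrounds differed. A peak near the end of chromosome 2 (19707 to 19872 on P. alba) had 45 reads in each list and a fold of 14.9 on P. alba against 10.9 on P. tremula, over 2.08 and 3.22 background reads. A peak on chromosome 6 (1609177 to 1609374 on P. alba) had 36 reads in each list and folds of 14.1 and 11.2. On chromosome 16 (5464482 to 5464773 on P. alba) the P. alba fold of 14.0 rested on 42 reads and the P. tremula fold of 10.3 on 47.

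The remaining members of the leading P. alba ranks lay at 4 further genes. On chromosome 14 (11053573 to 11053797) both lists had 42 reads, with folds of 12.997 and 12.2. On chromosome 6, a peak 3008 bp upstream (16953818 to 16954026) had a fold of 12.2 in each list. On chromosome 18 (8245694 to 8245913) both lists had 54 reads and folds of 11.7 and 11.8. On chromosome 15, a P. alba peak 2514 bp upstream (2799712 to 2799794) had 24 reads and a fold of 12.6 on a floor background, and its gene had 0 peaks in the P. tremula list.

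Further leading P. tremula peaks stood above their P. alba partners, were level with them or had no partner. On chromosome 11 (2283244 to 2283376 on P. tremula) the P. tremula peak had 37 reads and a fold of 13.4, and the P. alba peak 28 reads and 7.69. On chromosome 7 (980931 to 981078) the values were 32 reads and 12.6 against 21 reads and 7.73. On chromosome 14, a peak 1202 bp upstream (12246274 to 12246474) had folds of 12.1 and 11.3, and on chromosome 18, one 2330 bp upstream (16683935 to 16684065) had 34 reads and a fold of 11.4 in both lists. A P. tremula peak on chromosome 13 (13936705 to 13937222), 3277 bp upstream with 47 reads and a fold of 13.4, had no partner within the 100 bp allowed. The same gene did have a P. alba peak 3033 bp upstream (13940273 to 13940791), also with 47 reads, at a fold of 7.09. Of the 10 genes with the highest fold, 5 were the same in both lists. No replicate values exist against which to judge these differences.

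**Figure D4:**
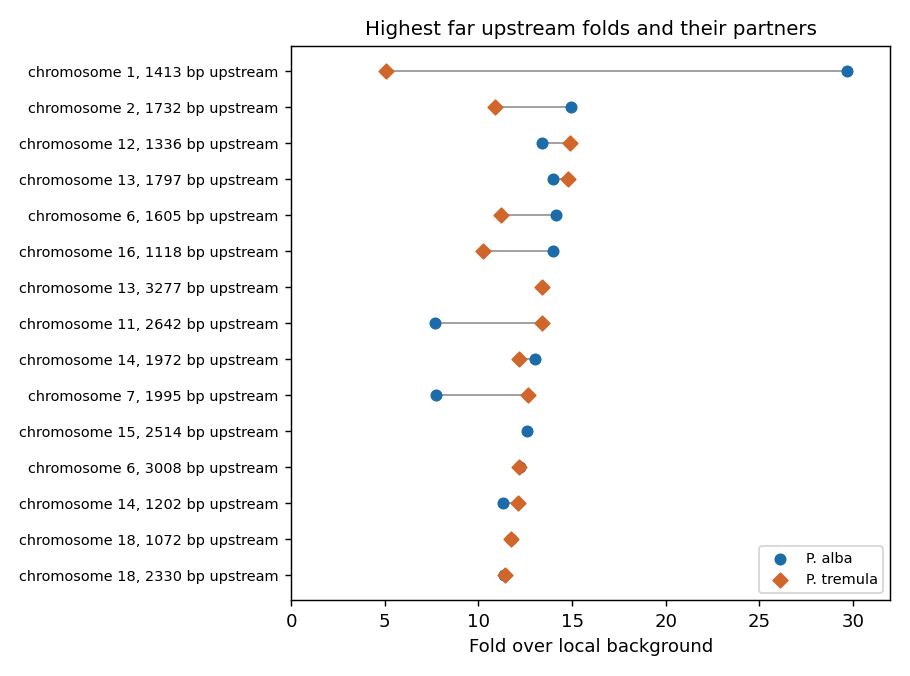
Fold over the local background for the 10 far upstream peaks of highest fold in each list, 15 genes in all, with the partner in the other list where one was found (circles P. alba, diamonds P. tremula). Labels give the chromosome and the distance from the start. The widest gap is at chromosome 1, 29.7 against 5.04, and 2 peaks have no partner.

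The deepest far upstream peaks did not have the highest folds. The deepest of either list lay 1316 bp ahead of Potri.005G113500 on chromosome 5, with 41401 reads and a fold of 4.73 on P. alba and 42188 reads and 4.60 on P. tremula. By its edge the deposited distance was 944 bp, and the summit fell inside another gene of the tables. Next on P. alba came a peak on chromosome 11 (7182229 to 7183062) with 1603 reads and a fold of 3.08, whose P. tremula partner had 1978 reads and 2.89. On chromosome 18 a peak (11597662 to 11597803) had 1415 reads and a fold of 2.31 against 699 reads and 1.58, and its neighbour (11602754 to 11602871) had 1221 and 1224 reads and folds of 1.90 and 1.92. On chromosome 10 (8322483 to 8322680) the reads were 1149 and 965 and the folds 4.41 and 5.01. The second deepest P. tremula peak (chromosome 11, 7184953 to 7186191), with 2029 reads and a fold of 2.70, had no far upstream partner, and its gene's only P. alba peak lay 1156 bp past the start with 996 reads.

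Most of the deepest members lay in 1 short stretch of chromosome 13. Of the 17 P. alba members with 500 reads or more, 11 stood there, at 6 genes, between 14706359 and 14819229. Of the 20 P. tremula members of this depth, 12 stood there, at 7 genes, between 14702797 and 14838373. The whole lists held 213 and 206 peaks of this depth, and how many of those lay in the stretch was not counted here. The concentration is therefore not read as a trait of far upstream peaks. In this stretch, Potri.013G139200 had 4 far upstream peaks on P. alba, at 1079, 1439, 1966 and 3066 bp, with 600, 868, 620 and 846 reads and folds of 2.91, 3.13, 5.31 and 2.29. On P. tremula it had 3, at 1387, 2101 and 2807 bp, with 1954, 1831 and 1289 reads and folds of 2.60, 2.32 and 2.37. The positions matched within 100 bp at only 1 of them, the pair at 1439 and 1387 bp. All members of this depth had a median fold of 2.91 on P. alba and 2.52 on P. tremula, over a median background of 358.7 and 431.9 reads.

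Most genes with a far upstream peak had a single one. On P. alba 1958 genes had 1, 124 had 2, 7 had 3 and 4 had 4, and on P. tremula the counts were 1811, 104, 10 and 1. Neighbouring summits ahead of the same transcript lay a median 524 bp apart on P. alba and 630 bp on P. tremula. Genes with 4 such peaks were of different kinds, and were picked out after their values were seen. A gene on scaffold_270 had 4 shallow ones in both lists, with 8 to 12 reads and folds between 3.33 and 4.42. A gene on chromosome 4 had 4 on P. alba and 3 on P. tremula, with 16 to 21 reads over backgrounds of 5.52 to 7.39 reads and folds between 2.15 and 2.70. A gene on chromosome 2 had 4 and 3, among 15 and 14 peaks in all, and folds between 1.75 and 3.02.

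A far upstream peak was often the only peak of its gene. No other peak of the same list was assigned to 1197 of the 2093 P. alba genes (57.2%, 55.0 to 59.3%) and 1158 of the 1926 P. tremula genes (60.1%, 57.9 to 62.3%). Of all genes with a peak, 71.9% on P. alba and 74.4% on P. tremula had a single one. A gene with several peaks has more chances to hold a far upstream one, so these shares were not compared by a test. Counted by peak, 46.6% of P. alba members had a further peak at their gene, below the 49.2% of all P. alba peaks and above the 39.4% of proximal peaks (odds ratio against proximal 1.34, 1.19 to 1.51, Fisher's exact adjusted p = 1.97e-06). On P. tremula the shares were 43.6% of members, 45.4% of all peaks and 36.1% of proximal peaks (odds ratio 1.37, 1.21 to 1.56, Fisher's exact adjusted p = 1.84e-06). For 285 P. alba and 242 P. tremula members the further peaks included another far upstream one. Peaks of the same gene are not independent in these tests. The far upstream window is also wider than the proximal one, which leaves more room for a second peak. The share with a further peak was 42.2% at 1000 to 1500 bp and 51.6% at 2500 to 3000 bp on P. alba, and 38.4% and 49.05% on P. tremula. The length of the stretch upstream of each gene was not measured, and its part in this was not tested.

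The further peaks were mostly not at the start. A peak within 250 bp of the start of the same gene was found for 6.51% of P. alba and 5.50% of P. tremula members. A proximal peak between 250 and 1000 bp was found for 5.35% and 4.92%. Promoter-class peaks inside the gene, more than 250 bp past its start, accompanied 16.9% and 15.6% of members, a second far upstream peak 12.7% and 11.8%, and a distal intergenic peak 13.2% and 12.4%. A gene can be counted under more than one of these. The windows differ in width, and the same shares were not computed over all peaks or proximal peaks. The order of the shares is therefore not read as a trait of far upstream peaks.

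Some summits could also be placed at another gene. The summit lay inside another gene of the same table for 120 P. alba members (5.35%) and 105 P. tremula members (5.11%), against 1.58% and 1.67% of proximal peaks. These are lower limits, since genes with no peak do not appear in the tables. For 30 P. alba and 20 P. tremula members the summit was also within 3000 bp ahead of a gene on the opposite strand (1.34% and 0.974%), against 3.16% and 3.30% of proximal peaks. The rule that gives each peak to 1 gene limits such cases for far upstream peaks, so these shares were not compared by a test.

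The last comparison was between the subgenomes. Of the P. alba members, 1558 (69.5%, 67.5 to 71.4%) had a partner on P. tremula, where 66.3% of all P. alba peaks had one. Of the P. tremula members, 1566 (76.3%, 74.4 to 78.1%) had a partner on P. alba, where 73.8% of all P. tremula peaks had one. Proximal peaks were paired more often, at 76.1% and 83.6% (odds ratios of far to proximal 0.713, 0.624 to 0.815, and 0.632, 0.541 to 0.739, Fisher's exact adjusted p = 1.49e-06 and 2.37e-08). Against proximal peaks more than 500 bp upstream the odds ratios were 0.891 and 0.751 (Fisher's exact adjusted p = 0.307 and 0.0463), so the P. alba call was lost. The distances of paired peaks differed by a median of 14 bp far upstream and 6 bp in proximal pairs. With 250 bp allowed in place of 100 bp, the shares rose to 72.3% and 79.6% far upstream and 77.9% and 85.2% for proximal peaks.

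In 1543 pairs both peaks were far upstream. In another 15 and 23 pairs only the P. alba or only the P. tremula peak was past the limit. The folds of the 1543 pairs were close, with a median of -0.00 and an SD of 0.17 for the log2 of the P. alba fold over the P. tremula fold. The summit held exactly the same number of reads in 1168 pairs (75.7%, 73.5 to 77.8%), against 79.4% of proximal pairs and 76.6% of all pairs. The 2 lists are therefore not independent measurements. A fold of 5 or more was found in both peaks of 180 pairs, on P. alba only in 28 and on P. tremula only in 19.

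**Figure D5:**
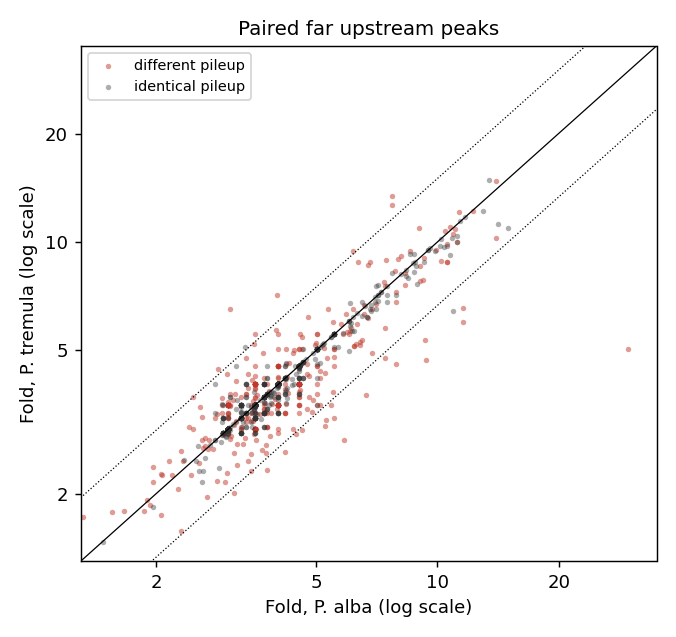
Fold over the local background on P. alba against that on P. tremula (log scales) for the 1543 pairs of far upstream peaks. The solid line marks equal folds, the dotted lines a difference of 1.5 times, and dark points the 1168 pairs with identical reads at the summit. All but 27 pairs lie between the dotted lines.

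Only 27 pairs (1.75%) differed by more than 1.5 times in fold, 19 of them higher on P. alba and 8 on P. tremula. After the chromosome 1 pair above, with a ratio of 5.89, the largest P. alba excess was on chromosome 19 (10314479 to 10314646 on P. alba), with 13 against 7 reads and folds of 5.87 and 2.82. Next came a pair on chromosome 4 (19947940 to 19948061) with 30 and 34 reads, so that the fold was higher on P. alba (9.37 against 4.70) while the reads were fewer. Pairs on chromosome 1 (29105445 to 29105633) and chromosome 10 (18550084 to 18550185) had 24 against 12 and 22 against 12 reads, with folds of 11.6 against 6.01 and 11.6 against 6.55.

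In the opposite direction the largest ratio, 2.14, was on scaffold_24 (271505 to 271602 on P. alba), where 14 and 13 reads gave folds of 3.05 and 6.51 for P. alba and P. tremula. A pair on chromosome 14 (11572592 to 11572815) had 15 and 16 reads and folds of 3.999 and 7.14. The chromosome 11 and chromosome 7 pairs named above followed, with ratios of 1.74 and 1.64. The fifth was on chromosome 10 (12981443 to 12981592), 3060 bp upstream, with 6 and 16 reads and folds of 3.52 and 5.54. In the pairs on chromosome 4, scaffold_24 and chromosome 14 the reads were nearly equal and the backgrounds differed.

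Members without a partner differed from paired ones in several measures, in both directions. Both had a median of 7 reads in each list. On P. alba 25.1% of 685 unpaired members had 10 or more reads, against 19.9% of paired ones, and on P. tremula 31.0% of 487 against 19.6%. Folds of 5 or more went the other way, at 5.26% of unpaired against 13.5% of paired P. alba members, and 4.52% against 12.8% on P. tremula. The q value was at or under 0.05 for 65.7% of unpaired and 79.3% of paired P. alba members, and for 66.3% and 79.4% on P. tremula. A far upstream peak elsewhere ahead of the same gene in the other list was found for 19.4% and 24.4% of unpaired members, and any peak of that gene for 50.9% and 56.5%. The same split was not made for all peaks or for proximal peaks. Whether these differences are particular to far upstream peaks was not tested.

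By gene, 1549 identifiers had a far upstream peak in both lists, which is 74.0% of the P. alba genes and 80.4% of the P. tremula genes. On P. alba alone 544 had one, and on P. tremula alone 377. The same overlap was not computed over all genes with a peak, so these counts are not read as a trait of the class. A missing peak can be a signal under the caller's threshold, so such counts do not tell whether 1 parental copy was bound alone.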

How the data were processed

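The submitters' processing notes name the tools ChIPseeker (1.18.0), MACS2 (2.2.7.1) and BWA (0.7.17.2), with no role given for each. Per the names in the deposited tables, peaks came from a file of marked duplicates. For genome build, calling options, control and pooling the record is silent (not given in the sources used here). The deposited columns are pileup (read coverage signal at the summit), fold enrichment ratio, −log10 q value, and the assigned gene. Every peak stood in 2 rows and was counted once. Positions count from 1 on the named subgenome.

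Distances were computed from summit and gene coordinates. The background is (pileup + 1) / fold − 1, with a pseudocount of 1, and the floor its lowest value within 0.01 reads. Partners share a gene and lie within 100 bp of the same distance, one to one, closest first. Shares have exact (Clopper-Pearson) 95% intervals for counting error only, and odds ratios have normal-approximation intervals. Shares were compared with two-sided Fisher's exact tests (scipy 1.17.1), Benjamini-Hochberg adjusted over the 4 shares in 2 lists, and added tests apart. The pairing was tried on copies of the P. alba members moved by less than the tolerance, with no unmatched peaks. The share test was tried on simulated independent counts. Neither trial covers peaks that depend on each other. Depth per library is unknown.

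The members, tests and named peaks were chosen with earlier results of these data known. Named peaks were the 10 of highest fold and 5 of highest pileup per list, the 5 pairs most apart in fold each way, and those at the limits. The planned lists of iron and wall genes could not be matched, for lack of gene names, and were not tested. Alternatives were other q limits, distance measures and limits, sequences, depths, references and pairing tolerances.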

Additional observations from a re-analysis of the deposited data

How the results depend on the processing

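Of 109 alternative values, 86 kept their direction and side of the threshold (or, for counts, stayed within 1.5 times), 11 lost their call, 8 changed direction and 4 counts moved. Odds ratios are far upstream against proximal peaks, P. alba first, and every p is from Fisher's exact test, adjusted. With q at or under 0.01 (exact tests), 966 and 872 members were left, the odds ratio for a fold of 5 or more was 1.21 on P. alba (p = 0.0988), and that for a further peak 1.19 on P. tremula (p = 0.147). With the deposited distances, the P. alba odds ratio for a fold of 5 or more was 1.22 (exact p = 0.0648). Against all other peaks, the odds ratios for 10 or more reads were 1.00 and 0.999 (exact p = 1 each), for a partner 1.1795 and 1.16 (p = 0.00179 and 0.0127), and for a further peak 0.889 and 0.918 (p = 0.0145 and 0.0967). So the shares with a partner and with a further peak lay between those of proximal peaks and of all other peaks. For further peaks on P. tremula the difference from other peaks had no call. The other peaks include distal intergenic ones, of which 46.2% and 51.4% had a partner and 65.0% and 61.1% a further peak. The middle position holds for this mixed reference only. Against proximal peaks more than 500 bp upstream, a reference chosen after the data were seen, they were 0.909 and 1.23 for a fold of 5 or more, 1.10 and 1.22 for 10 or more reads, and 0.891 for a P. alba partner (exact p = 0.307). With floor peaks only, also added, 1352 and 1203 members remained by construction, and the odds ratios were 0.896 and 0.915 for a fold of 5 or more, 1.15 and 1.10 for 10 or more reads (exact p = 0.753 and 0.791), and 1.12 for a further P. alba peak (p = 0.347). The cause of the other shifts was not tested. The comparison of 1 to 2 kb with 2 to 3 kb kept its call in all alternatives run for it. Shallow summits limit folds to a few discrete steps. No paired analysis was possible because peaks carry no separate library values. No library could be left out either.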
